A study of Mus musculus with 6 samples.

Results

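The CD28 and B7 families comprise 10 genes here. The 5 receptors are Cd28, Ctla4, Icos, Pdcd1 and Btla, and the 5 ligands are Cd80, Cd86, Icosl, Cd274 and Pdcd1lg2. Members were chosen by symbol, with earlier results of these data known. Each was read from a probe set whose only annotated gene is that member. All 10 were found among 19733 genes tested. Cd80 alone had more than 1 such probe set, and there the mean level over the 6 arrays decided which was used. That mean was taken without regard to group. For Cd80 it kept the probe set with the smaller difference between the groups.

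The arrays hold RNA of mouse bone marrow pre-B cells, the stage that precedes a complete antigen receptor. All cells carried floxed alleles of Ppp2r1a, which encodes the scaffold of the phosphatase PP2A, and all had been transduced with BCR-ABL1, a fusion kinase of B cell leukaemia. In 3 arrays the cells had also received Cre recombinase, which deletes the floxed gene. In the other 3 they had received an empty vector (EV), and their genotype is labelled wild type. The labels number the repeats without naming a culture or animal, and the spread behind each p-value may therefore be technical. No array had Cre in cells without floxed alleles, so effects of Cre itself and of the deletion cannot be told apart. Levels are log2 values after RMA, the authors' background correction, normalization and probe summary, and 1 log2 unit is a doubling. Array medians lay between 5.22 and 5.27. Ppp2r1a fell by 2.05 (SE 0.07) in Cre at a limma adjusted p of 1.203e-05. Over all genes, 689 (3.49%) passed a limma adjusted p of 0.05, of which 267 (1.35%) were higher and 422 (2.14%) lower in Cre. For 22.5% of genes every Cre array lay on one side of every EV array.

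Co-stimulation is the second signal that a T cell needs beside its antigen receptor. B cells and dendritic cells show the ligands CD80 and CD86, which switch T cells on through CD28 and hold them back through CTLA-4. ICOS and its ligand give a further positive signal, while PD-1 (Pdcd1) with its ligands PD-L1 (Cd274) and PD-L2 (Pdcd1lg2), and BTLA, inhibit. PP2A has been described to bind the cytoplasmic tails of CD28 and CTLA-4.

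Promoter sequence was read for 7 of the 10 members from RefSeq (build GRCm38.p6). Cd28, Icos and Cd86 had no stretch there, so the motif search does not cover them. Each stretch runs from 250 bases before to 50 after an annotated start. The 3 shown are those of Ctla4 and Btla, receptors that read lower in every Cre array, and of Cd274, the PD-L1 gene, whose regulators are described further on. Capitals mark matches, on either strand, to any of 7 motifs. These were the interferon-stimulated response element (GAAANNGAA), the interferon-gamma-activated site (TTCNNNGAA), NF-kB (GGGNNTTCC), FOXO (TGTTTAC), PU.1 (GAGGAAGT), the Myc E-box (CACGTG) and the TATA box (TATAAA).
Ctla4, chr1:60908775-60909074, plus strand: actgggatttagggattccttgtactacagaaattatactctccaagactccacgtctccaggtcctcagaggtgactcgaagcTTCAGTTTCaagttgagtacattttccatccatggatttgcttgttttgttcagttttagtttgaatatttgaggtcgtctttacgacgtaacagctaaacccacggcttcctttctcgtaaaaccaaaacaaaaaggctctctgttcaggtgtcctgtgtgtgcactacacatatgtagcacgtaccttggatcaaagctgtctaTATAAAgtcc
Btla, chr16:45224087-45224386, plus strand: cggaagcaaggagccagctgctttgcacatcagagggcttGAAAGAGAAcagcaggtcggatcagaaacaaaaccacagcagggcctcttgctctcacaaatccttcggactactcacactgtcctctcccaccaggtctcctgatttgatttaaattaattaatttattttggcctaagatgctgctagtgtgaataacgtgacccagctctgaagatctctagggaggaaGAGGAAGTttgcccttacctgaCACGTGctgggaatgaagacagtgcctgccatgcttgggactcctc
Cd274, chr19:29367188-29367487, plus strand: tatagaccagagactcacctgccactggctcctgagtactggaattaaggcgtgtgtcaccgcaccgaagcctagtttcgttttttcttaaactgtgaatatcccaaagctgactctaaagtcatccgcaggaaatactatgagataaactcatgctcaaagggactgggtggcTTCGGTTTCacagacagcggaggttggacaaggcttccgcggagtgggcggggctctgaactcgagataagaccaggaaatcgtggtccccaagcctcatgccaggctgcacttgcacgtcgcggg

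Of the 7 members' stretches, only the 3 shown held a match to the interferon element, 1 match each. Of 32851 stretches of this length 8.56% hold one, and the motifs were chosen after values were seen. The match began 166 bases before the start in Ctla4, 210 in Btla and 76 in Cd274. With 1 more A at the end, the element matched 3.44% of all stretches and none of the 7 members' stretches. Ctla4 also held a TATA box at base 41 of the annotated transcript (13.6% of stretches hold one). In Btla a PU.1 match began 18 bases before the start (3.2%) and an E-box at base 5 of the transcript (7.15%). The other member with a match was Cd80, a TATA box at base 5. The interferon-gamma-activated site (8.3%), the FOXO motif (3.65%) and this form of the NF-kB motif (5.82%) were in none of the 7 stretches. A wider NF-kB form, with any 5 bases between GGG and CC, matched Cd80, Icosl and Pdcd1lg2 and 50.8% of all stretches. No 2 of the marked matches overlap. A match describes these letters and is not evidence of binding.

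Cd28 was higher in the Cre cells, and it was the 1 member of 10 that passed the test, against 3.49% of all genes. The family was chosen with earlier results of these data known, so this count and the p-value of Cd28 are descriptions. The Cd28 probe set (10346783) read 6.10, 6.10 and 6.05 in Cre and 4.61, 5.08 and 4.96 in EV. Every Cre array lay above every EV array, with a gap of 0.97 between the groups. The Cre arrays were tightly grouped (6.08 ± 0.03; SD, n = 3), whereas the EV arrays spread more widely (4.88 ± 0.24; SD, n = 3), with EV replicate 1 the lowest. Cd28 rose by 1.20 (SE 0.12; 95% interval 0.93 to 1.47), 2.30-fold, at a limma adjusted p of 0.00173. Of the 19733 genes, 26 had a larger positive difference. The call was kept in each of the 6 fits that left out 1 array, with differences between 1.07 and 1.30 (highest limma adjusted p 0.0109). It was lost with ordinary t statistics, which do not share the spread between genes (adjusted p = 0.0698 in the same limma fit).

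Ctla4, the inhibitory counterpart of CD28, lies next to it on chromosome 1 and read in the other direction. Its levels were 6.38, 5.91 and 6.19 in Cre and 6.52, 6.63 and 6.47 in EV. All Cre arrays were below all EV arrays, but Cre replicate 1 and EV replicate 3 were only 0.095 apart. The difference was -0.38 (SE 0.12; 95% interval -0.66 to -0.10) and did not pass (limma adjusted p = 0.158). With the trend and robust settings of eBayes it did pass (limma adjusted p = 0.0455).

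Icos, the inducible co-stimulator, is the third gene of the chromosome 1 cluster. Its levels were 4.12, 4.53 and 4.17 in Cre and 3.84, 4.05 and 3.96 in EV. The groups did not overlap, with a gap of 0.078, and Cre replicate 2 was the highest array. The difference of 0.33 (SE 0.12; 95% interval 0.05 to 0.60) did not pass (limma adjusted p = 0.220).

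Btla, an inhibitory receptor also found on B cells, read 3.76, 3.85 and 3.69 in Cre and 3.94, 3.91 and 3.92 in EV. Again the groups did not overlap, by 0.06, and the EV arrays were nearly equal (3.92 ± 0.01; SD, n = 3). The difference was -0.16 (SE 0.07; 95% interval -0.31 to -0.001) at a limma adjusted p of 0.306. Pdcd1, which encodes PD-1, read 4.78, 4.78 and 4.61 in Cre and 4.85, 4.59 and 4.99 in EV, and the Cre values lay within the EV range. Its difference of -0.09 (SE 0.11; 95% interval -0.35 to 0.17) had a limma adjusted p of 0.780. Of the 5 receptors, then, 4 had groups that did not overlap (22.5% of all genes), 2 higher in Cre (10.3% of all genes) and 2 lower (12.2%), and 1 of the 4 passed the test.

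**Figure D1:**
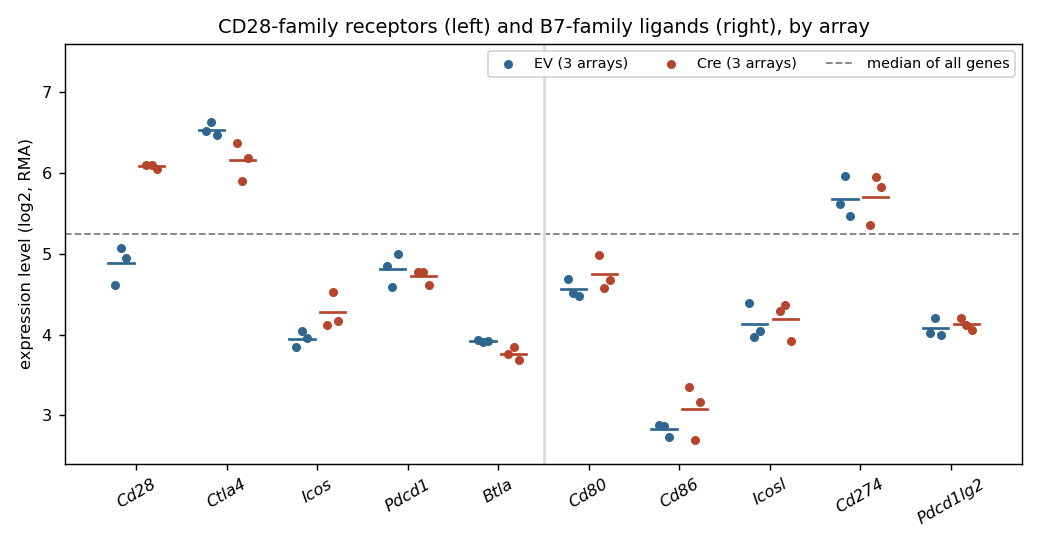
Log2 expression level (RMA) of the 10 members on each array, with EV in blue and Cre in red, replicates 1 to 3 from left to right and a bar at each group mean. The dashed line is the median of all genes, 5.25. Cd28 moves from below that line in EV (4.88) to above it in Cre (6.08). The groups overlap for Pdcd1 and, on the probe sets used, for all 5 ligands.

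On the probe sets used, 0 of the 5 ligands passed in limma, 0 also at an unadjusted p below 0.05 (16.1% of all genes). The Cre and EV arrays overlapped there for each ligand. Cd80, which binds both CD28 and CTLA-4, read 4.99, 4.57 and 4.68 in Cre and 4.69, 4.51 and 4.48 in EV. Cre replicate 1 was the highest array, and the difference was 0.19 (SE 0.12; 95% interval -0.08 to 0.46; limma adjusted p = 0.505). Leaving out 1 array gave between 0.067 (without Cre replicate 1) and 0.27 (without Cre replicate 2). Its other probe set, with a lower mean and the only one of the pair that lists the gene's RefSeq mRNA, read 4.87, 4.65 and 4.60 in Cre and 4.17, 4.43 and 4.42 in EV. There the groups did not overlap and the difference was 0.37 (SE 0.10), at a limma adjusted p of 0.133 over all probe sets. The 2 probe sets therefore pointed the same way with different sizes, and neither passed.

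Cd86, the other shared ligand of CD28 and CTLA-4, read 3.36, 2.70 and 3.17 in Cre and 2.88, 2.86 and 2.73 in EV. Cre replicate 2 was the lowest of the 6 arrays and the other Cre arrays were the highest, so the Cre spread (SD 0.34, n = 3) was wider than that of EV (SD 0.08, n = 3). The difference was 0.25 (SE 0.16; 95% interval -0.11 to 0.61; limma adjusted p = 0.507). Leaving out 1 array gave between 0.11 (without Cre replicate 1; limma adjusted p = 0.807) and 0.44 (without Cre replicate 2; limma adjusted p = 0.0902), and no such fit passed.

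Icosl, the ligand of ICOS, read 4.30, 4.37 and 3.92 in Cre and 4.39, 3.97 and 4.04 in EV. The difference of 0.06 (SE 0.15; 95% interval -0.29 to 0.41; limma adjusted p = 0.898) was smaller than the SD within either group. Cd274, which encodes PD-L1, read 5.35, 5.95 and 5.83 in Cre and 5.62, 5.97 and 5.47 in EV. Both groups covered nearly the same range, and the difference was 0.03 (SE 0.18; 95% interval -0.39 to 0.44; limma adjusted p = 0.966). This was the widest SE of the 10 members, so changes within that interval could not be told from none. Pdcd1lg2, which encodes PD-L2, read 4.21, 4.12 and 4.05 in Cre and 4.02, 4.21 and 4.001 in EV. Its groups overlapped too, with a difference of 0.05 (SE 0.08; 95% interval -0.14 to 0.24; limma adjusted p = 0.831).

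**Figure D2:**
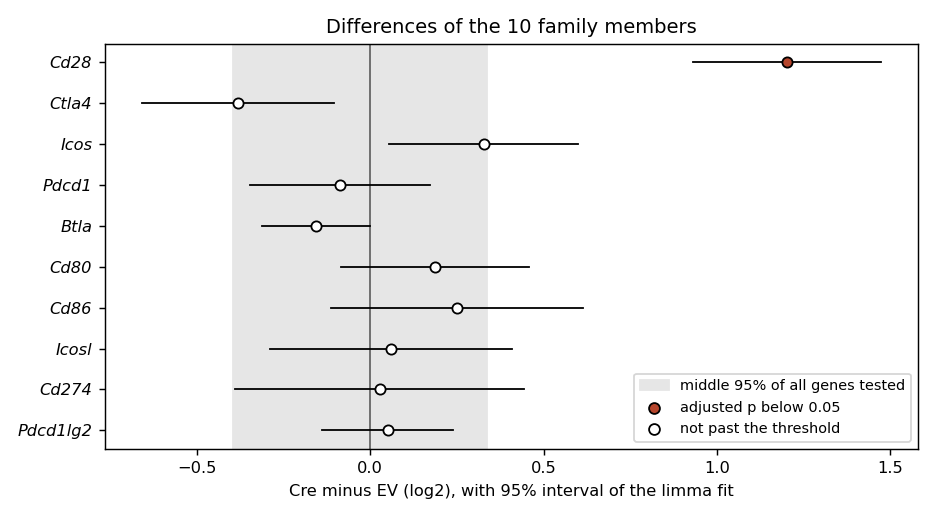
Cre minus EV on the log2 scale for each member, with the 95% interval of the limma fit. The grey band spans the middle 95% of all genes tested, from -0.40 to 0.34. The interval of Cd28 (0.93 to 1.47) lies wholly outside the band, and the other 9 points lie within it.

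The members' median difference was 0.06, beside -0.003 over all genes, and their median absolute difference 0.17, beside 0.09 over all genes. That absolute value was 0.33 for the 5 receptors and 0.06 for the 5 ligands. Of the 10 members 7 had a positive and 3 a negative difference, and the 3 negative ones were receptors. Signal of the family was low. Of the 10 members, 7 had a mean level below that of the median gene (5.25), and Cd28, Ctla4 and Cd274 were above it. Olfactory receptor genes, which pre-B cells are not known to use, gave a yardstick of low signal. The 1014 measured had a median level of 2.92 and a 95th percentile of 4.56. Mean levels of Icos, Btla, Cd86, Icosl and Pdcd1lg2 lay below that percentile, with Cd86 (2.95) close to the olfactory median. Cd28 was above it on every array. Near that background a log2 difference understates any fold change, and probe sets differ in brightness, so levels do not rank the transcripts.

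Of the 3 neighbouring receptor genes of chromosome 1, Cd28 passed and Ctla4 and Icos did not. In the GRCm38.p6 gene order, Raph1, which encodes lamellipodin, a link between Ras signals and actin, is the protein-coding gene before Cd28. Raph1 read 6.11, 5.88 and 5.96 in Cre and 5.17, 5.39 and 5.29 in EV. It rose by 0.70 (SE 0.09; limma adjusted p = 0.00564) and kept the call in each of the 6 fits that left out 1 array. Abi2, the next gene out, differed by 0.14 (limma adjusted p = 0.326). On the Icos side, Pard3b differed by -0.11 and Nrp2 by -0.03 (limma adjusted p = 0.569 and 0.927). Among the 2 nearest protein-coding genes on each side of the other members, Slc15a2, a peptide transporter near Cd86, was the only non-member called. It fell by 1.57 (SE 0.09; limma adjusted p = 0.000136), while Cd86 differed by 0.25. Adprh, beside Cd80, was not analysed here.

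**Figure D3:**
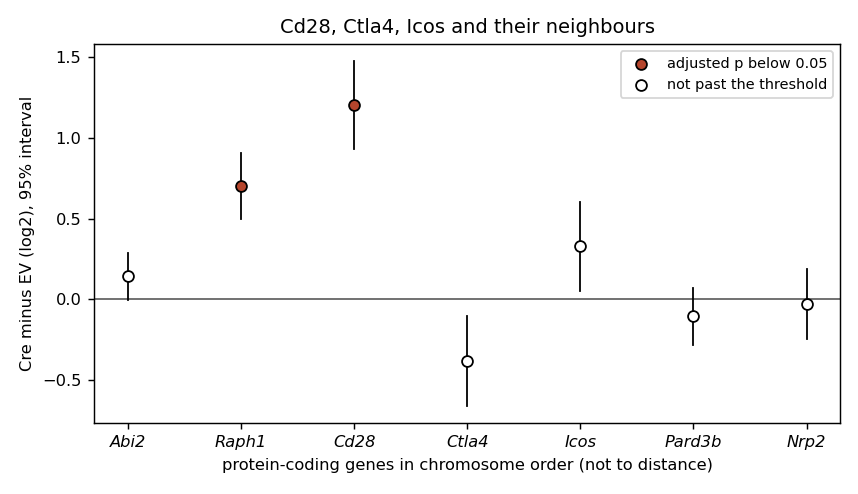
Cre minus EV (log2) with the 95% interval of the limma fit for 7 protein-coding genes in chromosome order, equally spaced. Raph1 (0.70) and Cd28 (1.20) are filled as past the threshold, and Ctla4 (-0.38) is the lowest of the 7.

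CD28, ICOS and CTLA-4 are best known from T cells, so markers of other cells were read on the same arrays. In a bulk sample a change in the number of cells of a type and a change in RNA per cell cannot be told apart. Of 12 T cell markers 1 rose (1.35% of all genes) and 1 fell (2.14%), with a median difference of -0.04. Cd5 did not pass but also read lower in every Cre array (difference -0.23; limma adjusted p = 0.181). The summed level of the 12 was 61.45 to 62.06 in Cre and 61.30 to 63.13 in EV, so the groups overlapped. The defining CD3 chain genes Cd3d, Cd3e and Cd3g differed by -0.09, -0.02 and -0.04, with EV means of 4.27, 5.05 and 3.55, all below the median gene. Beside the olfactory 95th percentile (4.56), the EV means of Cd3d and Cd3g lay below and that of Cd3e above. The T cell markers that passed were Lat (0.49 higher) and Cd2 (which fell by 0.44). Both genes are also known from mouse pre-B cells, and which cells gave their RNA was not tested. Each lost its call in 4 of the 6 fits that left out 1 array (highest limma adjusted p 0.0541 and 0.0923). The differences themselves ranged from 0.46 to 0.53 for Lat and from -0.50 to -0.40 for Cd2 in those fits.

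Of 38 NK cell, macrophage and granulocyte, dendritic cell, erythroid and stromal markers, 0 were called by limma and 5 had an unadjusted p below 0.05, which 16.1% of all genes had. B lineage markers were bright. All 15 measured lay above the median gene, with EV means of 10.39 for Pax5, 10.92 for Cd79a and 12.04 for Igll1. Of these 15 markers 3 fell, beside 2.14% of all genes. The recombinase gene Rag1 fell by 2.09, its partner Rag2 fell by 1.84, and Dntt, the terminal transferase of antigen receptor joints, fell by 0.48. The median difference of the 15 was 0.002. Their summed level was 149.62 to 151.46 in Cre and 154.50 to 155.23 in EV. Over the 12 that did not pass it was 128.74 to 129.01 in Cre and 128.54 to 128.92 in EV. These groups overlapped, but the 12 were picked by the same test, so the overlap partly follows from the choice. A sum also nets opposed differences, such as Ebf1 at -0.24 and Ptprc at 0.24. The part of B lineage markers in the rise of Cd28 was not tested. Dntt kept its call in 1 of the 6 fits that left out 1 array (highest limma adjusted p 0.108).

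Among 41 relatives of the members in 3 lists, 1 (2.44%) passed, a share near the 3.49% of all genes. Of 10 further B7 and butyrophilin genes, 0 passed in limma and 2 had an unadjusted p below 0.05 (16.1% of all genes). The smaller of these was that of Vsir, the inhibitory ligand VISTA, which read 6.21, 6.12 and 5.98 in Cre and 5.89, 5.79 and 5.68 in EV (difference 0.31, SE 0.09; limma adjusted p = 0.122). Of 16 other co-inhibitory receptors and their ligands, 1 rose and 0 fell. This was Cd48, a SLAM family ligand, at 7.70, 7.66 and 7.63 in Cre and 6.59, 6.72 and 6.73 in EV. It rose by 0.98 (SE 0.07; limma adjusted p = 0.000315), and the call was kept in all 16 alternative fits. Of 15 TNF superfamily co-stimulation genes, 0 passed in limma and 3 had an unadjusted p below 0.05, again beside 16.1%. Tnfrsf13c, the BAFF receptor of B cell survival, came nearest with a difference of 0.29 (SE 0.08; limma adjusted p = 0.0962).

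Downstream of the receptors, 22 partners of the CD28 and CTLA-4 tails and PI3 kinase genes were measured, with a median difference of 0.05. Ppp2r1a, the deleted gene, was the 1 that passed, beside 3.49% of all genes. Its call was set by the design and tells nothing about the list. The other 21 did not pass. Ap2m1, a subunit of the clathrin adaptor that takes CTLA-4 into the cell, had the smallest p among the rest. It read 8.94, 8.87 and 9.02 in Cre and 8.72, 8.60 and 8.61 in EV, a difference of 0.30 (SE 0.07; limma adjusted p = 0.0770).

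Upstream regulators were split. Of 28 genes that control PD-L1 or B7 transcription and turnover, 2 rose (1.35% of all genes) and 2 fell (2.14%), with a median of 0.01. Every Cre array lay above every EV array for 6 of the 28 (10.3% of all genes) and below for 6 (12.2%). The list was made with earlier results of these data known. Myc, a transcription factor reported to raise PD-L1, read 10.21, 10.02 and 10.70 in Cre and 11.29, 11.25 and 11.40 in EV, a fall of 2.00-fold (limma adjusted p = 0.0167). Ifngr1, a chain of the interferon-gamma receptor, fell by 0.45 (SE 0.08; limma adjusted p = 0.0245). Irf1, the interferon-induced factor that drives PD-L1, rose by 0.40 (SE 0.07; limma adjusted p = 0.0256). Spi1, which encodes PU.1, rose by 0.37 (SE 0.07; limma adjusted p = 0.0256). With 1 array left out, the calls of Ifngr1 and Irf1 were lost in all 6 fits, that of Spi1 in 5 and that of Myc in 4. Their highest limma adjusted p in those fits lay between 0.0662 and 0.0958. The differences ranged from -0.49 to -0.38 for Ifngr1, from 0.35 to 0.43 for Irf1, from 0.35 to 0.42 for Spi1 and from -1.20 to -0.86 for Myc. Cd274 itself differed by 0.03 beside these changes.

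**Figure D4:**
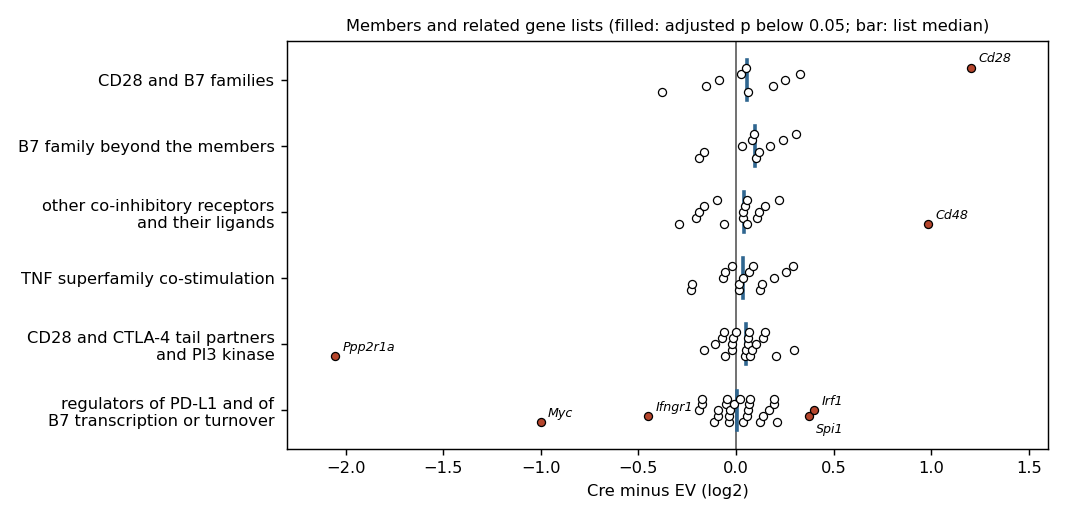
Cre minus EV (log2) of every measured gene of the members and of 5 related lists, with filled and named points past a limma adjusted p of 0.05 and a blue bar at each list's median. Most points lie near 0, and Cd28 (1.20) and Cd48 (0.98) are the furthest to the right.

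The genes whose values over the 6 arrays were most like those of Cd28 were Exosc3, S100a13, Lrrtm2, Azin1 and Gse1. Their Pearson r lay between 0.995 and 0.998, a description over 6 arrays that fall into 2 groups. Lrrtm2 and S100a13 rose by 1.99 and 0.65 and kept the call in each fit with 1 array left out. Azin1 rose by 0.38 and lost it in all 6 of them, while Exosc3 and Gse1 differed by 0.14 and 0.19 and did not pass. In all of these genes EV replicate 1 was the lowest array, as in Cd28. That likeness follows from choosing the genes by r and is no separate result. Among the members, r with Cd28 was highest for Icos (0.802) and lowest for Btla (-0.845).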

How the data were processed

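The authors deposited log2 values for each probe set on each array, made with RMA per the submitters' processing notes, and its version is not stated there. RMA's quantile step hides any change of the whole transcriptome, and no detection calls were used. Of 25006 probe sets, 21467 had 1 gene symbol in the platform annotation (21386 matched by gene identifier to RefSeq, GRCm38.p6), 1521 several and 2018 none. Only the first kind was tested, with the highest mean deciding among several. Cre and EV were compared over 19733 genes with limma 3.58.1 in R 4.3.3 (lmFit, eBayes, no block), Benjamini-Hochberg adjusted, at a threshold of 0.05, and tested on simulated data. Tables and plots used Python 3.11.15, pandas 2.3.3 and matplotlib 3.10.9. With 3 arrays per group, their number limits precision.

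Members and lists were chosen with earlier results of these data known. Named were all members, Ppp2r1a, up to 3 called genes per related list (the smallest p where none passed) and the 5 genes most like Cd28. Neighbouring genes, olfactory receptors, Ap2m1, Spi1, the named markers and the motifs were chosen after values were seen. Alternatives were another normalization, filters on dim genes, other eBayes settings, ordinary t statistics, array weights, other probe rules, the repeat number as a block and each array left out.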

Additional observations from a re-analysis of the deposited data

How the results depend on the processing

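The rise of Cd28 kept its direction in 16 alternative fits and its call in 15, with differences between 1.07 and 1.30. The exception was ordinary t statistics, under which 0 members passed (148 genes in all). With the trend and robust settings 2 members passed, Cd28 and Ctla4 (difference -0.38), and 1558 genes in all. Without the lowest 50% of genes, 1295 genes passed, and only 3 members remained to be tested. Leaving out 1 array gave between 362 and 424 genes, and 1 member each time. The repeat number as a replicate block gave 425 genes and kept the call of Cd28 alone. Deviations of same-numbered arrays correlated between -0.012 and 0.0304, so the numbers were not taken to pair the arrays. Signs turned only in members that never passed, and only with 1 array left out. Without Cre replicate 2, Cd274 gave -0.093 and Icosl -0.027. Over the 6 fits, Cd274 ranged up to 0.21 and Icosl up to 0.20. Pdcd1 ranged from -0.20 to 0.0065, the latter without EV replicate 3. Why these values changed was not tested. For Cd80, the probe set that lists the RefSeq mRNA gave 0.37, an alternative chosen after seeing the data.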
